A study of Mus musculus with 6 samples.

Results

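Oxidative phosphorylation is the process by which mitochondria make ATP, and the genes described here encode the parts of its enzymes that are read from nuclear DNA. A total of 93 genes were chosen from 31918 in the table. They are the protein-coding genes whose symbols begin with Nduf, Uqcr, Atp5 or Cox4 to Cox8, together with Sdha, Sdhb, Sdhc, Sdhd and Cycs. By symbol, 45 belong to complex I, 4 to complex II, 8 to complex III, 18 to complex IV and 17 to complex V, and 1 is cytochrome c. Not every gene so named is a subunit. The 7 Ndufaf genes encode assembly factors of complex I, the protein of Ndufa4 is now counted with complex IV, Cox7a2l encodes a factor that joins complexes III and IV, and Atp5s and Atp5sl do not encode subunits of ATP synthase.

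The libraries came from spermatogonia, the mitotic germ cells of the testis. All of them were taken from testes of pups at postnatal day 8 with the genotype Id4-eGfp (LT11), a reporter of Id4. The ID4 protein marks the stem cell end of the spermatogonial population. There were 3 libraries of cells with bright ID4-GFP fluorescence (Bright, labelled high for Id4) and 3 of cells with dim fluorescence (Dim, labelled low). The comparison asks how the transcriptomes of these populations differ. Nothing in the labels ties the libraries of a group to separate animals or sorts, so the p-values measure the spread between these libraries, which may be technical.

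In the inner mitochondrial membrane, complexes I and II take electrons from NADH and succinate, complex III passes them to cytochrome c, and complex IV hands them to oxygen. Complexes I, III and IV pump protons, and complex V, the ATP synthase, lets them flow back to make ATP. Complexes I, III, IV and V hold subunits from both nuclear and mitochondrial DNA, while complex II is wholly nuclear. Several subunits of complex IV, and cytochrome c, have separate genes for the testis or for muscle.

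Values are FPKM, fragment numbers scaled to transcript length and library size, which allows a rough comparison of levels between genes. Member transcripts are short, as given below, and how well the scaling holds for short transcripts was not tested. Differences are Bright minus Dim on log2(FPKM + 1). A gene was tested where it reached 1 FPKM in at least 3 of the 6 libraries, which 89 of the 93 members and 13416 genes in all did. Fewer transcripts per cell and fewer cells with a transcript cannot be told apart in these bulk libraries. The libraries held roughly 22500000 to 36400000 reads, estimated from the smallest steps of FPKM. The 12 spermatogonial markers were all in the table and summed to 1534 to 1739 FPKM in Bright and 1647 to 1834 FPKM in Dim. Single markers differed: 6 were higher in every Bright library than in any Dim library, and 4 were lower. For example, Gfra1 was at 76.7 to 87.7 FPKM in Bright and 3.33 to 7.24 in Dim. Kit was at 17.2 to 30.5 FPKM in Bright and 93.8 to 116.0 in Dim. Bright 3 stood apart: its Leydig markers summed to 1855 FPKM against 1.94 to 3.43 in the other 5 libraries, and its Sertoli markers to 514.7 against 9.13 to 25.0. Macrophage markers summed to 171.1 FPKM in Bright 3, 63.6 and 68.3 in Dim 1 and Dim 2, and 4.21 to 5.51 in the others. Endothelial markers summed to 6.47 to 18.8 FPKM in Bright and 2.48 to 2.87 in Dim, and 5 of 5 were higher in every Bright library. For Emcn, 1 of the 5, this rests on values near 0: 0.0712 and 0.0527 FPKM in Bright 1 and Bright 2, against 0.0493 in Dim 2. Erythroid markers summed to 0.910 to 19.7 FPKM in Bright and 1.72 to 11.3 in Dim. Postmeiotic germ cell markers summed to 5.02 to 7.29 FPKM in Bright and 1.74 to 3.69 in Dim. Of these 6 markers 1, Tnp1, was separate between the groups, at 4.60 to 6.68 FPKM in Bright and 0.668 to 2.67 in Dim, and the other 5 were below 1 FPKM in every library and overlapped. The 8 Leydig markers, 9 of 10 Sertoli markers, 8 of 9 myoid and stromal markers and 9 of 9 macrophage markers were highest in Bright 3. Their part in the results below was not tested, and each call is given also without Bright 3.

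By FPKM, the members were abundant in both populations. Their mean over the 6 libraries had a median of 112.7 FPKM, against 13.5 FPKM over all genes tested, and the median percentile among those genes was 94.3. Among complexes, the median level of the tested members was 78.5 ± 19.2 FPKM in Bright and 95.4 ± 24.1 in Dim for complex I, 86.8 ± 8.8 and 99.2 ± 13.7 for complex II, and 140.0 ± 26.7 and 154.3 ± 33.2 for complex III (here and below, ± is the SD over libraries, n = 3 each). It was 161.3 ± 36.0 FPKM in Bright and 207.8 ± 44.9 in Dim for complex IV, and 205.6 ± 46.9 and 244.9 ± 42.1 for complex V. In each complex these levels overlapped between the groups. The most abundant member of each complex, by the mean over all libraries, was Ndufb9 of the membrane arm in complex I at 329.2 FPKM, Sdha, the flavoprotein, in complex II at 140.1, and Uqcrh, the hinge protein, in complex III at 436.2. In complex IV it was Cox4i1, the common form of subunit 4, at 609.6 FPKM, and in complex V Atp5b, the catalytic beta subunit, at 613.3. The assembly factor Ndufaf3 was the lowest tested member at 3.46 FPKM.

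Members moved together between libraries of the same group. Of the 89 tested, 82 were highest in Bright 2 among the Bright libraries and 79 were highest in Dim 2 among the Dim libraries, against 39.9% and 39.6% of all genes tested. Summed over the 93 members, the share of all FPKM was 1.94%, 2.59% and 2.15% in Bright 1, 2 and 3, against 2.07%, 2.82% and 2.53% in Dim 1, 2 and 3. The groups overlapped in this share. Member transcripts are short, with a median length of 710 bases against 2133 over the protein-coding genes tested, and short transcripts in general stood high in the libraries numbered 2. The mean of these 2 libraries exceeded that of the other 4 by a median of 0.20 on the log2 scale over all 903 tested genes of at most 700 bases, while the same median was -0.18 over the 2121 genes above 4000 bases. Over the 43 members of at most 700 bases the same median was 0.58. From 700 to 1000 bases it was 0.46 over 21 members and 0.19 over all genes. From 1000 to 2000 bases it was 0.34 over 20 members and 0.14 over all genes. From 2000 to 4000 bases it was 0.39 over 5 members and -0.01 over all genes. In each length class that held members, they stood above all genes. The median SD within groups was 0.36 for members and 0.20 for all genes tested (log2), and the median standard error of a member's Bright minus Dim difference was 0.24. The part of transcript length in the spread was not tested.

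**Figure D1:**
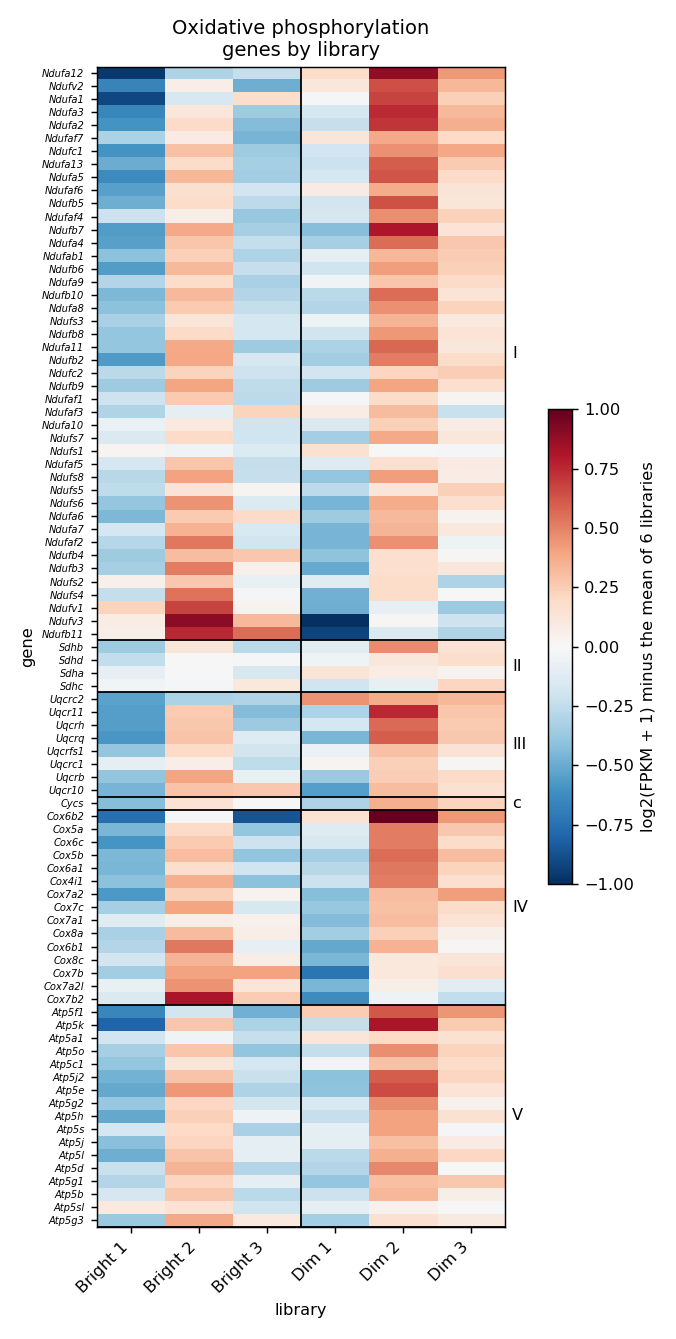
Log2(FPKM + 1) of the 89 tested members minus each gene's mean over the 6 libraries, with genes in rows by complex (I to V, with c for cytochrome c) and libraries in columns, Bright left of Dim; colours stop at -1 and 1. Most members are high in Bright 2 and Dim 2, and within each complex the rows run from the gene most in excess in Dim to the gene most in excess in Bright.

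Between Bright and Dim, 6 of the 89 tested members passed the test. Ndufb11 of complex I was higher in Bright, and Ndufa12 and Ndufv2 of complex I, Uqcrc2 of complex III, Cox6b2 of complex IV and Atp5f1 of complex V were lower in Bright. The excess was 1.65-fold to 2.23-fold as a ratio of group means. The test was limma with Benjamini-Hochberg adjustment over all 13416 genes and a threshold of 0.05. By this rule 22.5% of all genes tested passed, with 12.0% higher in Bright and 10.5% lower in Bright, so the members' share of 6.74% was below the background. The remaining 83 members did not pass. At an unadjusted p under 0.05 in limma there were 4 higher and 6 lower in Bright, 10 of 89 against 35.4% of all genes tested. These shares depend on the model. The titles number the libraries of both groups 1 to 3, but do not state that equal numbers are pairs. With the replicate number added as a block, the members' share lower in Bright was above that of all genes, unlike in the fit without it. The counts are given in the last section. The median difference was -0.20 over the members and -0.03 over all genes tested, and 69 of 89 members lay below 0 against 52.8% of all genes. By complex the median was -0.24 for complex I, -0.16 for II, -0.27 for III, -0.06 for IV and -0.22 for V. The member median of a library, relative to each gene's mean over the 6 libraries, was -0.38, 0.26 and -0.20 in Bright 1, 2 and 3, against -0.23, 0.37 and 0.15 in Dim 1, 2 and 3. These medians overlapped between the groups, with an SD within groups of 0.32. Without Dim 2 the median was -0.07 and 57 members lay below 0, and without Bright 2 it was -0.38 and 79 lay below 0.

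**Figure D2:**
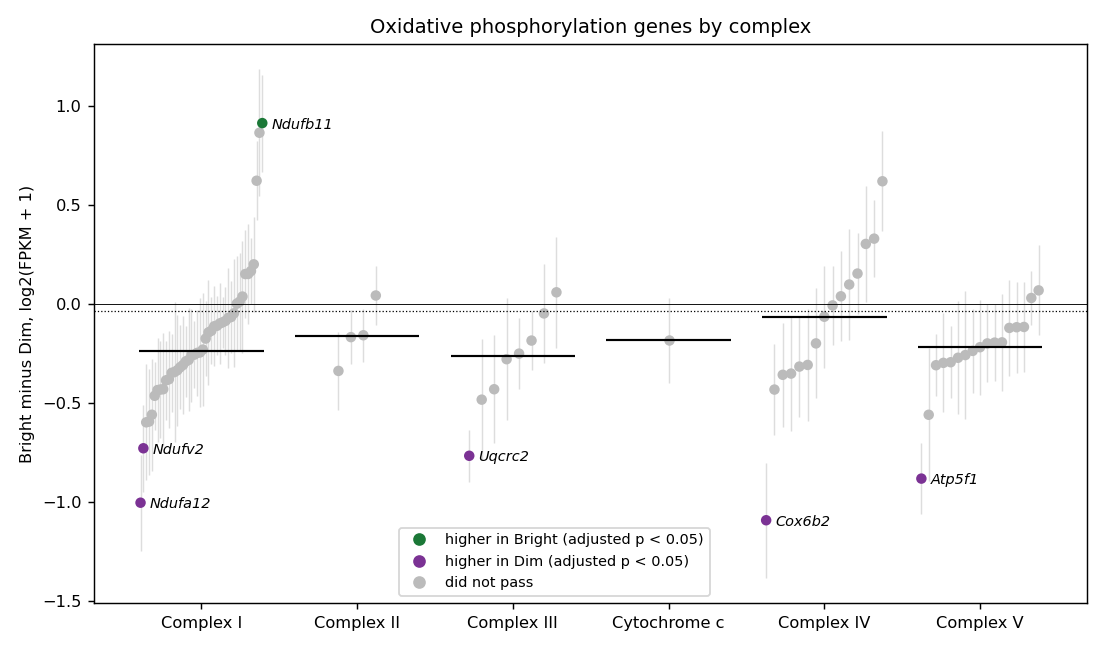
Bright minus Dim difference on log2(FPKM + 1) for each tested member, by complex, with standard errors as thin bars, the median of each complex as a line and the median of all genes tested as a dotted line. Medians of all complexes lie below 0, the called members Ndufb11, Ndufa12, Ndufv2, Uqcrc2, Cox6b2 and Atp5f1 are labelled, and the median of complex IV, at -0.06, is the closest to 0.

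Bright and Dim values were fully separate in 3 members with Bright above Dim (3.37%, against 20.4% of all genes tested) and in 8 with Dim above Bright (8.99%, against 20.8%). The first were Ndufb11, Ndufv1 and Ndufv3. The members with Dim above Bright were Ndufa12, Ndufv2, Ndufaf7, Uqcrc2, Cox6b2, Atp5f1, Sdha and Atp5a1. In the authors' deposited table, 3 members were higher in Bright at q under 0.05 (Ndufv1, Ndufv3 and Cox7b2, background 5.07%) and 5 were lower in Bright (Uqcrc2, Atp5f1, Ndufa12, Ndufv2 and Ndufa13, background 2.64%), of which 4 were among the 6 called here. There, 7.71% of all genes passed in either direction. These backgrounds of the authors' table cover all 31918 genes, of which 6271 were at 0 in every library. They cannot be set beside the limma shares, which cover the 13416 genes tested, or read as shares of expressed genes.

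The 150 bases before the start of 5 of the 6 called genes are shown because these genes passed the test. They come from RefSeq's GRCm38.p6 table, which held 77 of the 93 members, and are written 5′ to 3′ on the strand of the gene, with matches to 5 motifs in capitals. The motifs were GCGCATG for NRF1, CCGGAAG for ETS factors, AAGATGG for YY1, AAGGTCA for ESRRA and CCAAT for the CCAAT box, each searched on both strands. The start is that of RefSeq: in the deposited table the gene spans begin further upstream for Atp5f1, so that its window lies inside the span, and for Ndufa12, so that part of its window does.
Atp5f1 (chr3:105959264-105959413, minus strand): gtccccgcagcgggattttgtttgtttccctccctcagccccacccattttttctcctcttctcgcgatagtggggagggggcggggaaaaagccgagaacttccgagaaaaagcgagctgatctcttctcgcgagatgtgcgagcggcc
Ndufa12 (chr10:94198885-94199034, plus strand): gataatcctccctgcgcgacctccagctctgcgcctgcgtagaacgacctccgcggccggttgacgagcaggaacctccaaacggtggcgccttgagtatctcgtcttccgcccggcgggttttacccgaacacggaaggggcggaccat
Ndufv2 (chr17:66101560-66101709, minus strand): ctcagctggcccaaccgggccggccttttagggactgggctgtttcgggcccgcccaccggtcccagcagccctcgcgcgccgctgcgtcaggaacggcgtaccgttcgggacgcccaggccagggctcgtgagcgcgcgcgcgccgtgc
Cox6b2 (chr7:4753095-4753244, minus strand): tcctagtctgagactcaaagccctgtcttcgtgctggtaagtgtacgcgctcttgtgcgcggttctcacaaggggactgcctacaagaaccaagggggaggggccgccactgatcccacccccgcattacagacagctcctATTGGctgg
Ndufb11 (chrX:20617620-20617769, minus strand): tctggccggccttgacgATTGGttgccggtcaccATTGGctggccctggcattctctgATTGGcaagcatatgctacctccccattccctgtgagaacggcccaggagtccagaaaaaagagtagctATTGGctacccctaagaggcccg
Only CCAAT, read as ATTGG on the other strand, matched in these windows: 4 times before Ndufb11 and 1 time before Cox6b2, while Atp5f1, Ndufa12 and Ndufv2 showed no match there. In the whole promoters (250 bases before to 50 after the start), GCGCATG was found in 16 of the 77 members (20.8%) and in 4.04% of all 27025 genes of the table. CCGGAAG was found in 20.8% of members and 9.12% of all genes, AAGATGG in 14.3% and 6.48%, and AAGGTCA in 10.4% and 4.66%. CCAAT was found in 45.5% of members and 37.9% of all genes. The 27025 genes were not matched to the members in gene type or level. Whether these differences are particular to the pathway was therefore not tested. The only match to the first 4 motifs among the 5 called genes was AAGATGG in Atp5f1, downstream of the printed bases. A match is a sequence feature and not a measured binding site, and CCAAT was added after the sequences were seen.

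**Figure D3:**
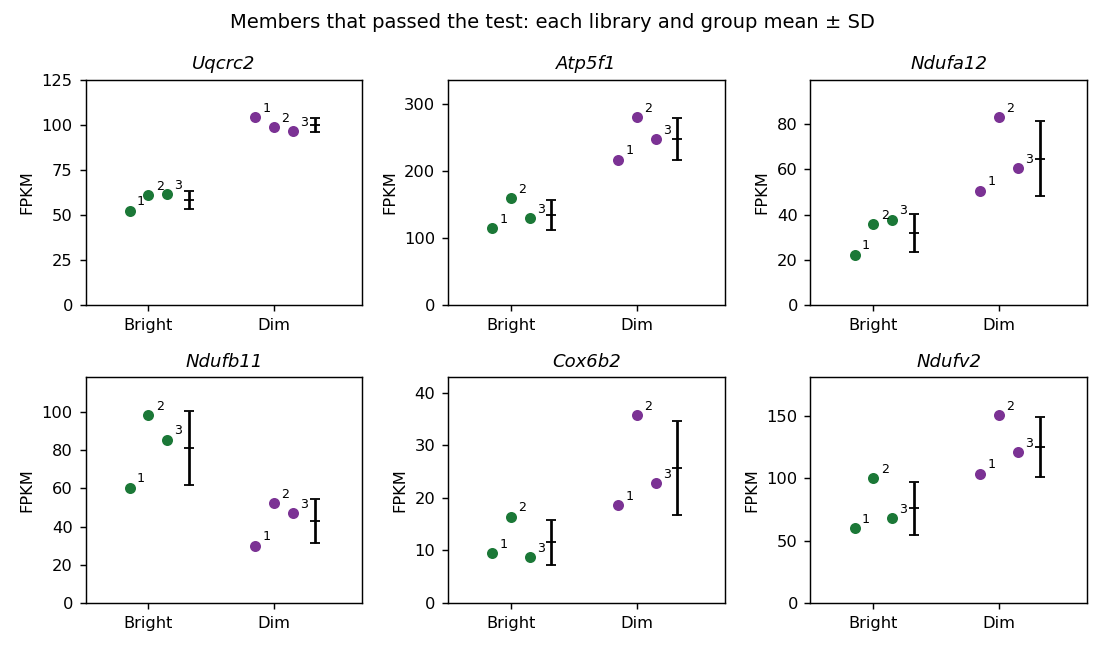
FPKM of the 6 called members in each library (points, numbered by replicate) with the group mean and SD beside them, Bright left and Dim right, each axis starting at 0. The groups do not overlap in any of the 6, Ndufb11 is higher in Bright, and the spread within groups relative to the mean is smallest for Uqcrc2.

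Coordinates of genes are those of the deposited table. For 67 of the 93 members they equal those of GENCODE M21 on GRCm38, although the submitters' processing notes name mm9.

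In complex I, the entry point for electrons from NADH, 1 of the 44 tested members rose and 2 fell in Bright. Of all genes tested 12.0% rose and 10.5% fell. The median difference was -0.09 over the 7 core subunits, -0.25 over the 29 accessory subunits and -0.14 over the 7 assembly factors. Ndufv1, Ndufv2 and Ndufv3 encode proteins of the tip of the complex that binds NADH, and the sign of the difference was not the same in all of them. Ndufv2, a core iron-sulfur subunit (chromosome 17, 66078795 to 66101559), measured 60.0, 100.2 and 68.0 FPKM in Bright 1, 2 and 3, against 103.8, 150.8 and 120.9 in Dim 1, 2 and 3. Every Dim library was above every Bright library (difference -0.73, SE 0.22, limma adjusted p = 0.0451). Ndufv1, the core subunit that holds the flavin and the NADH site, measured 166.9, 228.4 and 146.0 FPKM in the Bright libraries and 101.4, 134.9 and 110.6 in the Dim libraries. It was above Dim in all Bright libraries and missed the threshold (0.62, SE 0.20, limma adjusted p = 0.0565), but passed without Bright 3 (0.0450) and in the authors' deposited table (log2 ratio 0.60, q = 0.00754). Ndufv3, an accessory subunit beside them, measured 65.0, 115.2 and 77.6 FPKM in the Bright libraries and 28.3, 62.1 and 53.1 in the Dim libraries and did not pass (0.86, SE 0.32, limma adjusted p = 0.0950), while its q in the authors' deposited table was 0.0448.

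The ratio of these partners within a library leaves out what a library does to all members alike. Ndufv1 and Ndufv3 were each higher, and Ndufv2 lower, in every Bright library than in any Dim library. Both ratios therefore had to separate the groups, and the separation adds no support beyond the single genes. Ndufv1 divided by Ndufv2 was 2.78, 2.28 and 2.15 in Bright 1, 2 and 3, against 0.977, 0.895 and 0.915 in Dim 1, 2 and 3. Ndufv3 divided by Ndufv2 was 1.08, 1.15 and 1.14 in Bright, against 0.272, 0.412 and 0.440 in Dim. The pairs were picked after their values were seen and are given without a test.

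Ndufa12, an accessory subunit at the base of the NADH-binding part (chromosome 10, 94198955 to 94221443), measured 22.3, 35.7 and 37.8 FPKM in the Bright libraries and 50.7, 83.0 and 60.6 in the Dim libraries. The lowest Dim library lay above the highest Bright library, and the Dim mean was 2.03 times the Bright mean (difference -1.003, SE 0.24, limma adjusted p = 0.0199). Ndufaf2, an assembly factor related to Ndufa12 that holds its place while the complex is built, averaged 65.3 ± 21.6 FPKM in Bright and 63.7 ± 20.8 in Dim (SD, n = 3 each) and did not pass (0.04, limma adjusted p = 0.941). Ndufb11, an accessory subunit of the membrane arm (chromosome X, 20615326 to 20617619), measured 60.3, 98.5 and 85.5 FPKM in the Bright libraries and 30.1, 52.1 and 46.9 in the Dim libraries. All Bright libraries were above all Dim libraries, with a ratio of means of 1.89 (difference 0.91, SE 0.24, limma adjusted p = 0.0302). Of the other X-linked members, Ndufa1 averaged 63.2 ± 22.8 FPKM in Bright and 93.6 ± 23.7 in Dim (limma adjusted p = 0.186), and Cox7b of complex IV averaged 57.2 ± 15.7 and 46.7 ± 14.7 (limma adjusted p = 0.505). Neither passed, and their differences of -0.60 and 0.30 had opposite signs.

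Among the 7 assembly factors 0 passed in limma, and 1 had an unadjusted p under 0.05. That was Ndufaf7, a methyltransferase that acts on a core subunit, at 12.3, 16.5 and 11.0 FPKM in the Bright libraries and 17.0, 20.5 and 18.0 in the Dim libraries. The groups did not overlap, with a difference of -0.46 (SE 0.17, limma adjusted p = 0.0873, and 0.0334 without Bright 2). Ndufa3, of the complex I membrane arm, averaged 99.5 ± 27.3 FPKM in Bright and 152.1 ± 47.5 in Dim (limma adjusted p = 0.151, and 0.0428 without Dim 1).

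Of the calls in complex I, that of Ndufa12 was lost without Dim 3 (limma adjusted p = 0.0562) and kept without each other library. Ndufb11 was not called without Bright 2 (0.0749), Bright 3 (0.0924), Dim 1 (0.0561) or Dim 3 (0.0634), and Ndufv2 was not called without Bright 1 (0.136), Bright 3 (0.127), Dim 2 (0.125) or Dim 3 (0.117). Ndufb11 shares 117 bases in GENCODE M21 with Rbm10 on the opposite strand, an RNA-binding protein gene that measured 28.9, 29.1 and 25.3 FPKM in the Bright libraries and 10.7, 12.9 and 13.5 in the Dim libraries (difference 1.11, limma adjusted p = 0.00122). Whether the libraries kept strand is not given in the sources used here, so reads of the shared bases cannot be assigned to either gene, and the part of such overlaps in the results was not tested.

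In complex II 0 of the 4 genes passed in limma, and 0 had an unadjusted p under 0.05. Sdha, the flavoprotein that oxidizes succinate, averaged 132.5 ± 7.6 FPKM in Bright and 147.8 ± 5.32 in Dim, without overlap (difference -0.16, limma adjusted p = 0.435). Sdhb, the iron-sulfur subunit, had the most negative difference at -0.34 (limma adjusted p = 0.255), and the membrane anchor Sdhc the most positive at 0.04 (limma adjusted p = 0.860).

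In complex III, 1 of 8 members fell in Bright and none rose, where 10.5% of all genes tested fell and 12.0% rose. Uqcrc2, core protein 2 (chromosome 7, 120635176 to 120659524), measured 52.5, 61.1 and 61.7 FPKM in the Bright libraries and 104.3, 98.9 and 96.5 in the Dim libraries. The libraries were tight within each group, the groups stood far apart, and the Dim mean was 1.71 times the Bright mean (difference -0.77, SE 0.13, limma adjusted p = 0.00425). The call was kept with each library left out in turn, with adjusted p between 0.00837 and 0.0221. Its partner Uqcrc1, core protein 1, averaged 125.8 ± 14.1 FPKM in Bright and 143.0 ± 13.0 in Dim and did not pass (-0.19, limma adjusted p = 0.418). The ratio of Uqcrc1 to Uqcrc2 was 2.38, 2.30 and 1.82 in Bright, against 1.31, 1.60 and 1.40 in Dim, again a pair picked after its values were seen. Uqcrc2 overlaps Pdzd9 on the opposite strand by 794 bases, and Pdzd9 was at 1.97 to 2.37 FPKM in Bright and 3.33 to 4.36 in Dim (-0.64, limma adjusted p = 0.0202). The most positive difference in the complex was that of Uqcr10, at 143.1 ± 38.6 FPKM in Bright, against 138.0 ± 40.0 in Dim (0.06, limma adjusted p = 0.902).

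In complex IV, which reduces oxygen, 1 of 15 tested members passed, against 22.5% of all genes tested, and it was a testis form. Cox6b2, the testis form of subunit 6b (chromosome 7, 4751792 to 4753094), measured 9.47, 16.5 and 8.74 FPKM in the Bright libraries and 18.7, 35.8 and 22.8 in the Dim libraries. The lowest Dim library was above the highest Bright library, and the Dim mean was 2.23 times the Bright mean (difference -1.09, SE 0.29, limma adjusted p = 0.0303). The call was lost without Bright 1 (0.0934), Bright 3 (0.0950), Dim 2 (0.0647) or Dim 3 (0.0736). The common form Cox6b1 measured 200.5, 354.7 and 232.8 FPKM in the Bright libraries and 173.0, 314.1 and 248.4 in the Dim libraries, overlapping between groups (0.10, limma adjusted p = 0.828). As a share of both genes, Cox6b2 made up 4.51%, 4.43% and 3.62% in Bright 1, 2 and 3, against 9.74%, 10.2% and 8.42% in Dim 1, 2 and 3. Within each group these shares were close, and the groups did not overlap.

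The other isoform genes gave different pictures. Cox7b2, the testis form of subunit 7b, exceeded the common gene in every library: it measured 65.6, 128.8 and 86.5 FPKM in the Bright libraries and 46.5, 70.1 and 60.9 in the Dim libraries. The groups overlapped, and the difference of 0.62 did not pass (SE 0.25, limma adjusted p = 0.118, and 0.0476 without Bright 1), while q in the authors' deposited table was 0.0425. Its share of Cox7b2 plus Cox7b was 61.8% ± 4.8 in Bright and 56.5% ± 4.5 in Dim (SD, n = 3 each). Cox8c, the testis form of subunit 8, held 4.64% ± 0.17 of its family in Bright and 4.27% ± 0.36 in Dim. Cox4i2, Cox6a2 and Cox8b, forms known from lung or muscle, reached at most 0.562, 0.207 and 0.136 FPKM in any library and were not tested. Cox7a1, a muscle form, averaged 11.8 ± 0.86 FPKM in Bright and 12.1 ± 3.3 in Dim (limma adjusted p = 0.984). Within the Cox7a family, the share of the common form Cox7a2 was 38.8%, 44.2% and 45.9% in the Bright libraries and 47.9%, 51.2% and 55.9% in the Dim libraries. Cox7a2l took most of the rest, at 157.4 ± 29.6 FPKM in Bright, against 125.0 ± 22.3 in Dim, and neither gene passed (limma adjusted p = 0.647 for Cox7a2 and 0.264 for Cox7a2l). Cox7a2l encodes the joining factor named at the start, so this share is not one among isoforms of a subunit. Relative to Cox7a1 alone, Cox7a2 overlapped between the groups. Ndufa4 averaged 202.0 ± 60.0 FPKM in Bright and 255.8 ± 75.6 in Dim (limma adjusted p = 0.434), and its relative Ndufa4l2, known as a target of hypoxia signalling, reached at most 0.890 FPKM and was not tested.

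Cytochrome c, the carrier between complexes III and IV, is read from Cycs in most tissues and from Cyct in the testis. Cycs measured 38.6, 57.5 and 52.3 FPKM in the Bright libraries and 41.9, 67.0 and 61.0 in the Dim libraries (-0.18, limma adjusted p = 0.582). Cyct, which is not among the 93, measured 58.8, 102.2 and 76.4 FPKM in the Bright libraries and 39.2, 65.7 and 65.5 in the Dim libraries (0.47, limma adjusted p = 0.225). Neither passed, and both overlapped between groups. As a share of both genes, however, Cyct made up 60.4%, 64.0% and 59.4% in the Bright libraries and 48.4%, 49.5% and 51.8% in the Dim libraries, without overlap. Shares were computed in 9 families and are given without a test. Of the 6 postmeiotic markers, Tnp1 alone was higher in every Bright library. Prm1, Prm2, Tnp2, Acrv1 and Odf1 stayed below 1 FPKM in every library of these day 8 testes, so the markers as a set do not show postmeiotic cells. Whether the Tnp1 difference has a link to the shares of the testis forms was not tested.

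**Figure D4:**
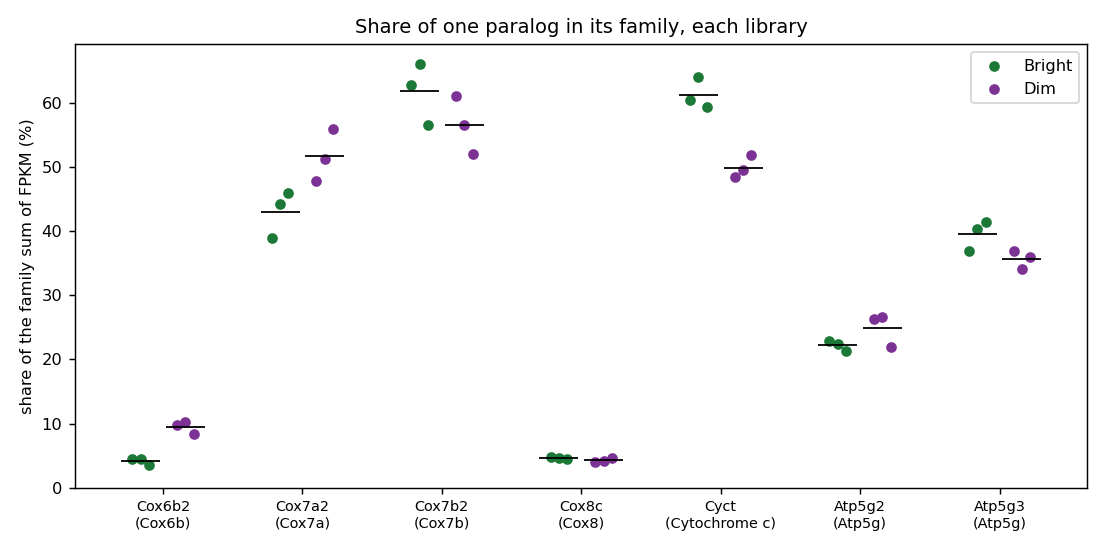
Share of the summed FPKM of a gene family taken by 1 of its genes, in percent, for each library (points) with the group mean (line), Bright left of Dim in each pair. The shares of Cox6b2 and Cox7a2 lie lower in all Bright libraries than in any Dim library, and that of Cyct lies higher in all Bright libraries. The sum for Cox7a2 includes Cox7a2l, the factor that joins complexes III and IV. The shares of Cox7b2, Cox8c and Atp5g2 overlap. Those of Atp5g3, at 36.9% to 41.3% in Bright and 34.1% to 36.8% in Dim, nearly touch.

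In complex V, the ATP synthase, 1 of 17 members fell in Bright and none rose. Of all genes tested 10.5% fell and 12.0% rose. In complex V 15 differences were below 0, against 52.8% of all genes tested. Members moved together between libraries, so these signs are not independent. Atp5f1, subunit b of the stalk that holds the catalytic head still (chromosome 3, 105942698 to 105960099), measured 115.3, 159.8 and 130.2 FPKM in the Bright libraries and 217.6, 280.8 and 248.2 in the Dim libraries. The groups were well apart, and the Dim mean was 1.84 times the Bright mean (difference -0.88, SE 0.18, limma adjusted p = 0.00909). The call was kept with each library left out in turn, with adjusted p between 0.00571 and 0.0406. Atp5h, subunit d of the same stalk, averaged 220.8 ± 56.1 FPKM in Bright and 255.4 ± 55.1 in Dim and did not pass (-0.22, limma adjusted p = 0.558). The ratio of Atp5f1 to Atp5h was 0.709, 0.582 and 0.579 in Bright, against 1.10, 0.910 and 0.958 in Dim, for a pair picked after its values were seen. Atp5f1 overlaps Wdr77 on the opposite strand by 731 bases, and Wdr77 did not pass (94.5 to 115.4 FPKM in Bright, 114.4 to 133.0 in Dim, limma adjusted p = 0.287).

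The 5 genes of the catalytic F1 part had differences between -0.31 and -0.12, 0 passed in limma, and 0 had an unadjusted p under 0.05. Atp5a1, the alpha subunit, averaged 295.9 ± 20.8 FPKM in Bright and 366.5 ± 10.05 in Dim, without overlap (limma adjusted p = 0.193), and Atp5b averaged 589.0 ± 122.1 and 637.5 ± 120.1 (limma adjusted p = 0.750). Atp5g1, Atp5g2 and Atp5g3 encode the same mature subunit c, the protein of the rotor ring. Atp5g3 had the most positive difference of the complex, at 214.7 ± 54.1 FPKM in Bright, against 202.4 ± 35.7 in Dim (0.07, limma adjusted p = 0.855). The share of Atp5g3 in the 3 genes was 36.9%, 40.3% and 41.3% in the Bright libraries and 36.8%, 34.1% and 36.0% in the Dim libraries, and that of Atp5g1 was 38.3% ± 1.7 in Bright and 39.4% ± 2.6 in Dim. Atp5k, subunit e, had the second most negative difference of the complex at -0.56 (SE 0.33) and did not pass (limma adjusted p = 0.271).

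Transcripts of near-identical copies can divide reads. In GENCODE M21, 11 members had a transcript of another gene with at least 95% identity over at least 50% of their length, and of the called members only Ndufb11 did, with the pseudogene Gm6444 (96.9% over 456 bases). Only 2 of these copies were in the table, and the higher of them reached 0.337 FPKM.

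Further genes of the pathway, outside the 93, were tested in the same fit. Of the complex I assembly genes, 2 of 8 were lower in Bright and 0 higher, where 10.5% of all genes tested were lower and 12.0% higher. Ecsit averaged 26.9 ± 4.5 FPKM in Bright and 42.8 ± 7.0 in Dim (limma adjusted p = 0.0256), and Tmem126b averaged 7.29 ± 0.33 and 10.2 ± 0.73 (0.0489). Of 7 further complex III genes, 1 was lower in Bright and 0 higher: Cyc1, cytochrome c1, measured 121.9, 146.8 and 117.2 FPKM in the Bright libraries and 182.7, 233.2 and 193.6 in the Dim libraries, without overlap (-0.65, limma adjusted p = 0.0224). Of 5 tested complex V factors, 2 were lower in Bright and 0 higher, namely the assembly factors Atpaf1 (23.5 ± 4.1 and 35.0 ± 4.4 FPKM, limma adjusted p = 0.0417) and Atpaf2 (25.9 ± 2.6 and 37.6 ± 3.8, 0.0292). Hccs, the enzyme that attaches haem to cytochrome c, was also lower in Bright, at 45.2 ± 4.6 against 63.8 ± 4.9 FPKM (limma adjusted p = 0.0332). Of 19 tested complex IV assembly genes and 4 of complex II, 0 passed in limma in either direction, and at an unadjusted p under 0.05 there were 1 of the 19 and 0 of the 4.

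The calls of Ecsit, Cyc1 and Atpaf2 held in 2 of the 6 fits that left out a library, without Bright 2 and without Dim 1. Those of Atpaf1 and Hccs held in 1, without Bright 2, and that of Tmem126b in 0.

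Of 16 tested regulators of respiratory genes, 2 were lower in Bright, near the 10.5% of all genes tested, and 0 higher. They were Gabpb1, a subunit of the ETS factor GABP, at 21.7 ± 4.0 FPKM in Bright, against 31.9 ± 1.2 in Dim (limma adjusted p = 0.0368), and Polrmt, the mitochondrial RNA polymerase, at 18.0 ± 4.9 and 34.0 ± 11.2 (0.0412). The call of Gabpb1 held without Bright 1 or Bright 2, and that of Polrmt without Bright 2 or Dim 1, and neither held without any other library. At an unadjusted p under 0.05 in limma, 7 of the 16 regulators were lower and 1 higher in Bright. Of all genes tested, 35.4% passed that threshold in either direction. Nrf1, the factor of the GCGCATG motif, averaged 42.1 ± 5.9 FPKM in Bright and 40.8 ± 1.4 in Dim (limma adjusted p = 0.883). Of the 13 subunits from mitochondrial DNA 0 passed in limma, 0 had an unadjusted p under 0.05, and their median difference was -0.13. Among them mt-Cytb of complex III had the most negative difference at -0.39, with 4454 ± 503 FPKM in Bright and 5803 ± 202 in Dim (limma adjusted p = 0.309). Among 20 genes of mitochondrial import, carriers and shape, 2 were higher in Bright, where 12.0% of all genes tested were, and 1, the outer membrane channel gene Vdac2, was lower, at 74.2 ± 1.69 FPKM in Bright, against 102.0 ± 2.83 in Dim (limma adjusted p = 0.0295, kept in the fit without Bright 3 and in no other with a library left out). Those higher were ADP/ATP carriers, which exchange the product of complex V for ADP. Slc25a5 measured 69.4, 90.6 and 102.8 FPKM in the Bright libraries and 22.0, 29.1 and 33.4 in the Dim libraries, with no overlap (1.61, SE 0.20, limma adjusted p = 0.00107, called without each library in turn). Slc25a4 measured 20.5, 32.4 and 48.6 FPKM in the Bright libraries and 9.91, 12.1 and 16.5 in the Dim libraries (1.28, limma adjusted p = 0.0220), and the germ cell form Slc25a31 was at 156.6 ± 22.9 and 168.6 ± 14.5 FPKM (limma adjusted p = 0.655). Slc25a4 was highest in Bright 3, in which Leydig and Sertoli markers were high, and its call held without Bright 3 (limma adjusted p = 0.0476). It was lost without Bright 2 (0.0709), Dim 1 (0.0901) or Dim 2 (0.0955).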

How the data were processed

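Per the labels, total RNA was extracted with Trizol and libraries were made with oligo d(T) priming. The authors deposited a table of FPKM values per gene and library, and a comparison with a log2 ratio, a p-value and a q-value per gene. Per the submitters' processing notes, TopHat2 2.1.1, Cufflinks 2.2.1 and mm9 were used. Another 6 columns of per-sample values, in tables of pairwise comparisons, were not used. Read totals are estimates from the steps between low FPKM values, so no counting error is given.

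Genes of at least 1 FPKM in at least 3 of 6 libraries were compared as log2(FPKM + 1), which understates changes of low genes, with limma 3.58.1 in R 4.3.3 (trend, robust) and Benjamini-Hochberg adjustment at 0.05. The fit was tested on simulated data with independent noise for each gene and library and a spread taken from Dim. Those data held no shifts shared by genes of a library, as seen in the members, so the test does not cover them. Sequences were matched with Python 3.11.15 and BLAST 2.17.0. Named were called members, the extremes and most abundant member of each complex, paralogs, members whose call changed with a library left out or with the replicate block, and at most 4 called genes of each further list. A few others are named for comparison. The members and lists were chosen with earlier results of these data known.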

Additional observations from a re-analysis of the deposited data

How the results depend on the processing

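Under all alternatives listed here the 6 called members kept the direction of their difference. Members higher and lower in Bright numbered 1 and 5. Without a filter on low values they were 0 and 2, with libraries scaled to a common median ratio 2 and 4, and with quantile normalization 2 and 5. With 1 library left out at a time, 0 to 2 members were higher and 2 to 6 lower in Bright, against 1095 to 1418 and 849 to 1225 of all genes. After seeing the data, both libraries numbered 2 were left out: the 6 calls were kept, with 837 genes of all lower in Bright. The replicate numbers were checked for pairing. Deviations from group means correlated over all genes at 0.44 and 0.51 for the pairs numbered 1 and 2. For the pair numbered 3 the correlation was -0.19, and Bright 3 correlated best with Dim 1, so the numbers were not taken as pairs. Bright 3 is also the library in which Leydig and Sertoli markers were high, and their part in this correlation was not tested. Over the members alone the same correlations were 0.66, 0.71 and 0.20, each library correlated best with its own number, and the member median was lower in Bright under each number. That is a hint of pairing from the data, while the labels share the numbers without stating pairs. Whether the libraries are paired thus remains unknown, and the counts turn on it. With the replicate block, 6 of the 89 tested members were higher and 23 lower in Bright, against 2607 and 2846 of the 13416 genes tested. Under the block the members' share lower in Bright was thus above that of all genes, unlike in the main fit. Their share higher in Bright stayed below it. The block kept the 6 calls and added Atp5a1, Atp5k, Cox5a, Cox6c, Cox7a2l, Cox7b, Cox7b2, Ndufa1, Ndufa13, Ndufa2, Ndufa3, Ndufa4, Ndufa5, Ndufaf6, Ndufaf7, Ndufb5, Ndufb7, Ndufc1, Ndufv1, Ndufv3, Sdhb, Uqcr11 and Uqcrh. The cause of these moves was not tested. With 3 libraries a group, an exact permutation test cannot go below p = 0.1, and a median standard error of 0.24 (log2) limits what can be detected.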
